A study of Mus musculus with 2 samples.

Results

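The genes described here are the Hox genes, transcription factors with a homeodomain that lie in 4 clusters on 4 mouse chromosomes. The 38 members were taken from a fixed list: 10 Hoxa genes on chr6, 10 Hoxb genes on chr11, 9 Hoxc genes on chr15 and 9 Hoxd genes on chr2. They are 38 of the 39 Hox genes annotated as protein-coding in these clusters in GENCODE M21, and the remaining one was not analysed here. All 38 were found among the 21938 protein-coding genes of the nuclear chromosomes. The data were DNase-seq profiles, in which the enzyme DNase I cuts accessible chromatin. The tissue was heart of male mice of strain B6CASTF1/J, aged 14 days, F1 offspring of the strains C57BL/6J and CAST/EiJ with no further genotype or treatment in the labels. There was a single group with 2 biological replicates. Replicate 1 is labelled as 3 males and replicate 2 carries no number of animals, so a pool of hearts may be set against 1 heart here. With no second group there was no contrast to test, and every value below describes these 2 libraries.

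Hox genes set the identity of positions along the body axis of the embryo. Within a cluster they share a direction of transcription, and the paralogue group, numbered 1 to 13, gives a gene's place in the row. Genes of groups 1 to 3 (anterior) act first and towards the head, those of groups 4 to 8 (central) in the trunk, and those of groups 9 to 13 (posterior) towards the tail and in the limbs. Hoxb1 and Hoxa3 are known from the progenitors of the second heart field, which add the outflow tract and other parts to the embryonic heart. Where Hox genes are silent their chromatin carries the marks of the Polycomb complexes, and sites of the insulator protein CTCF divide the clusters into active and silent stretches. A heart holds many cell types, and DNase-seq of the tissue cannot tell fewer cells with an open site from a less accessible site in each cell.

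A promoter was taken as 1 kb either side of any annotated start, and its value as the signal of the highest peak that touched it. The authors normalized this signal to read depth, and it has no unit. A gene was called open where both replicates had such a peak. Of the 38 Hox genes, 19 (50%) were open, against 68.8% of all protein-coding genes. A further 5 had a promoter peak in a single replicate, and 14 had none in either. Replicate 1 held 143122 peaks in the genome and replicate 2 held 125118. Read totals were not given in the sources used here and the depth is therefore unknown. Of the marker genes of heart cells, all 8 of cardiomyocytes, all 4 of fibroblasts, all 4 of endothelium and all 4 of mural cells were open, which goes with the labelled tissue. Of epicardium and leukocytes, also cells of a heart, 2 of 3 marker genes each were open, so not all heart-cell markers were. Of markers of other tissues, 1 of 3 genes of lung epithelium and 1 of 3 of skeletal muscle were open.

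The open Hox promoters were weak. Their median signal was 1.25, and they ranged from 0.569 at Hoxb2 to 4.95 at Hoxa7, while the median over all open protein-coding genes was 6.6. Hoxa7, the highest, stood at the 40.3th percentile of open genes, so all 19 were below that median. Base composition, which goes with open promoters in general, differed little between the Hox genes that were open and those that were not. Of the 38 genes, 23 had a CpG-rich promoter (observed over expected CpG of at least 0.6 and at least 50% G and C within 500 bp of the 5' end). Of those 23, 12 (52.2%) were open, against 97.5% of the 9738 CpG-rich genes of the genome. The median observed over expected CpG was 0.645 in the open Hox genes and 0.678 in the others. Open CpG-rich genes had a median signal of 8.97 in the genome and 1.25 among the Hox genes.

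The closed promoters were also looked up in the deposited list of bases with a false discovery rate of cleavage under 0.05. That list comes from the same libraries as the peaks, so it is not an independent check of them. All 19 open genes had such a base in the promoter in both replicates. None of the other 19 did, 7 had one in a single replicate, and 12 had none. Over the genome, 69.4% of protein-coding genes had a listed base in both replicates.

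**Figure D1:**
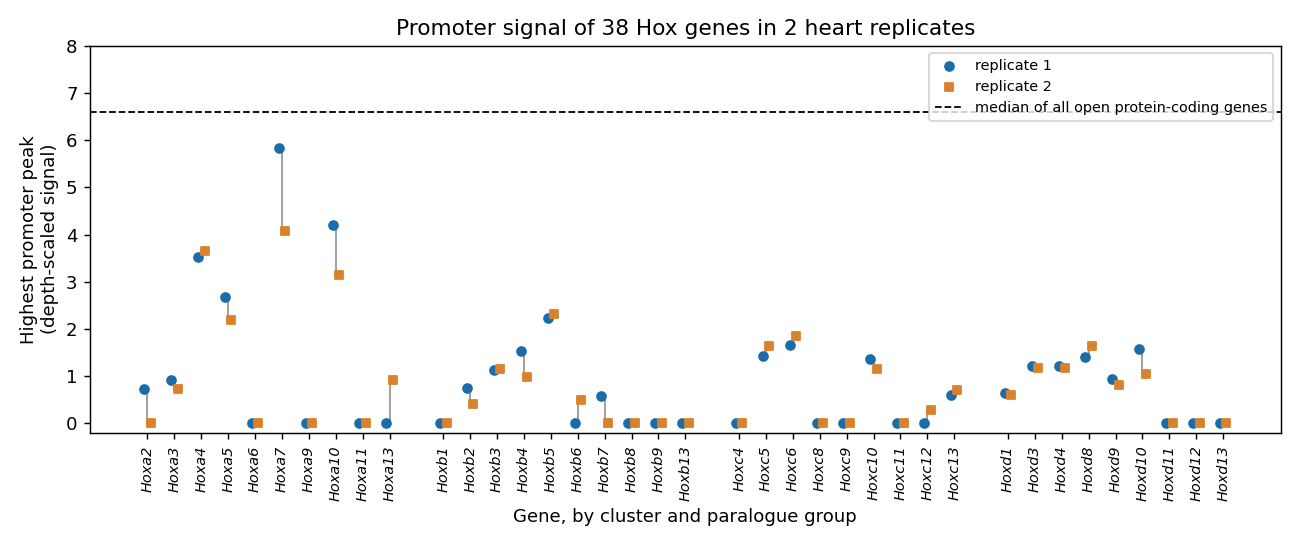
Signal of the highest peak within 1 kb of any start of each Hox gene, on the depth-scaled scale of the authors, in replicate 1 (circles) and replicate 2 (squares), with genes in order of cluster and paralogue group; points at 0 had no peak. The dashed line is the median of 6.6 over all open protein-coding genes, and all Hox genes lie below it, with Hoxa7, Hoxa10 and Hoxa4 the highest.

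Of the 7 anterior genes, 5 were open, with a median signal of 0.828. Hoxa3, which acts in the pharyngeal arches and the second heart field, gave 0.922 in replicate 1 and 0.734 in replicate 2. Its paralogue Hoxb3 had 1.13 and 1.14, at a peak 976 bp from an alternative start. Hoxd3 had 1.21 and 1.16, at a peak that also touched the start of a long Hoxd4 transcript and counted for both genes. All 3 listed members of group 3 were thus open, each at only part of its annotated starts. The Hoxa3 peak lay at its farthest upstream starts, between Hoxa6 and Hoxa7. The Hoxa3 starts at positions 52183855 and 52184874 had no peak in either replicate. Of the 82 annotated starts of the 38 genes, 25 had a peak in both replicates. Hoxb2 was the weakest open gene of the 38, with 0.738 and 0.4, and the peaks of the replicates lay side by side without overlapping. Hoxd1 had 0.631 and 0.591 at its own start. Hoxb1, a gene of the hindbrain and the second heart field, had neither a promoter peak nor a listed base in any replicate. Hoxa2, which patterns the hindbrain and the second pharyngeal arch, had a peak of 0.723 in replicate 1 alone, 995 bp from its start.

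Of the 15 central genes, 9 were open, and they had the highest median, 1.75. Hoxa7, which acts in the trunk skeleton, had 5.83 in replicate 1 and 4.08 in replicate 2 (mean 4.95 ± 1.24, SD, n = 2). The peak covered the farthest upstream of its 5 annotated starts, at position 52221854 of chr6, and not those farther 3'. The Hoxa7 starts at 52217505 and 52217452 had a peak of 0.985 in replicate 2 alone. Those at 52218711 and 52220393 had none in either replicate. Hoxa4 followed with 3.52 and 3.64 (3.58 ± 0.082), at a peak 88 bp upstream of its only start. Hoxa5, which is needed for lung and for the cervical skeleton, had 2.67 and 2.18 (2.43 ± 0.35), and its peak lay across the start. These 3 Hoxa genes exceeded every open central gene of the other clusters on the mean, although in replicate 2 Hoxb5 (2.31) was above Hoxa5. Hoxb5 itself had 2.24 in replicate 1 (mean 2.28 ± 0.0485), and Hoxb4, a gene also used to expand blood stem cells, had 1.52 and 0.985. In the Hoxc cluster, Hoxc5 had 1.42 and 1.63 and Hoxc6 had 1.65 and 1.84. The Hoxc6 peak lay 984 bp from its farthest upstream start, close to the edge of the window. Hoxd4 had the peak it shares with Hoxd3, 1.21 and 1.16, and Hoxd8 had 1.41 and 1.64, with the highest peak at a different place in each replicate. All 3 members of group 5 were open and 3 of the 4 of group 4, with Hoxc4 the exception. Hoxa6, Hoxb8, Hoxc4 and Hoxc8 had no peak in either replicate, while Hoxb6 (0.489, replicate 2) and Hoxb7 (0.582, replicate 1) had a weak peak in one.

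Of the 16 posterior genes, 5 (31.2%) were open, with a median of 1.25. Hoxa10, which acts in the uterus, the limb and the lumbar skeleton, had 4.21 in replicate 1 and 3.14 in replicate 2 (3.67 ± 0.754). Hoxc10 had 1.35 and 1.15, and Hoxd10 had 1.58 and 1.04, so all 3 genes of group 10 were open. Hoxd9 was the only open gene of the 4 in group 9, with 0.943 and 0.818. Hoxc13, a gene of hair and nail, had 0.589 and 0.698, and the highest peak lay at a different place in each replicate. None of the 5 listed genes of groups 11 and 12 was open. Hoxa11, Hoxc11, Hoxd11, Hoxd12, Hoxd13, Hoxb13, Hoxa9, Hoxb9 and Hoxc9 had no peak in either library. Hoxa13, which patterns the digits and the genital tract, had 0.919 in replicate 2 alone, and Hoxc12 had 0.275 there.

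Read by cluster, the number of open genes differed little and the level differed more. Hoxa had 5 of 10 open with a median of 3.58, Hoxb 4 of 10 with 1.19, Hoxc 4 of 9 with 1.39 and Hoxd 6 of 9 with 1.19. The weakest open Hoxa gene, Hoxa3 (0.828), lay below the medians of the other clusters, so the higher level rested on Hoxa4, Hoxa5, Hoxa7 and Hoxa10. In Hoxd the open genes formed a run from Hoxd1 to Hoxd10, and the closed ones were the 3 at the posterior end, Hoxd11, Hoxd12 and Hoxd13. Within that run Hoxd3 and Hoxd4 were open through a single shared peak, and their other starts had none. With only peaks that touch the promoter of 1 gene, both dropped out and 4 of 9 Hoxd genes were open. In Hoxb the open genes were the run from Hoxb2 to Hoxb5, with Hoxb1 not open on one side and Hoxb6 to Hoxb13 not open on the other. Hoxa and Hoxc had no such run: open Hoxa10 lay between closed Hoxa9 and closed Hoxa11, and Hoxc13 and Hoxc10 lay among closed neighbours. The anterior and Hoxb counts depended most on the window and the peak set. The smaller peak set left 2 of 7 anterior genes and 2 of 10 Hoxb genes open, while it left all 9 central ones.

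The clusters were then read as whole intervals, from 20 kb before the first to 20 kb after the last listed gene. Peaks of the 2 replicates were merged into 92 regions, of which 49 (53.3%) had a peak in both, against 65.9% of the 158036 regions of the genome. Replicate 1 alone had 9 of the rest and replicate 2 alone had 34, of which 18 lay in the Hoxa interval. In the genome the imbalance went the other way, with 35776 regions in replicate 1 alone and 18052 in replicate 2 alone. Shared regions in the intervals had a median signal of 1.31, against 0.991 in the genome, and 43 of the 49 held footprints in both replicates. A footprint is a short stretch inside accessible DNA that was protected from cleavage.

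**Figure D2:**
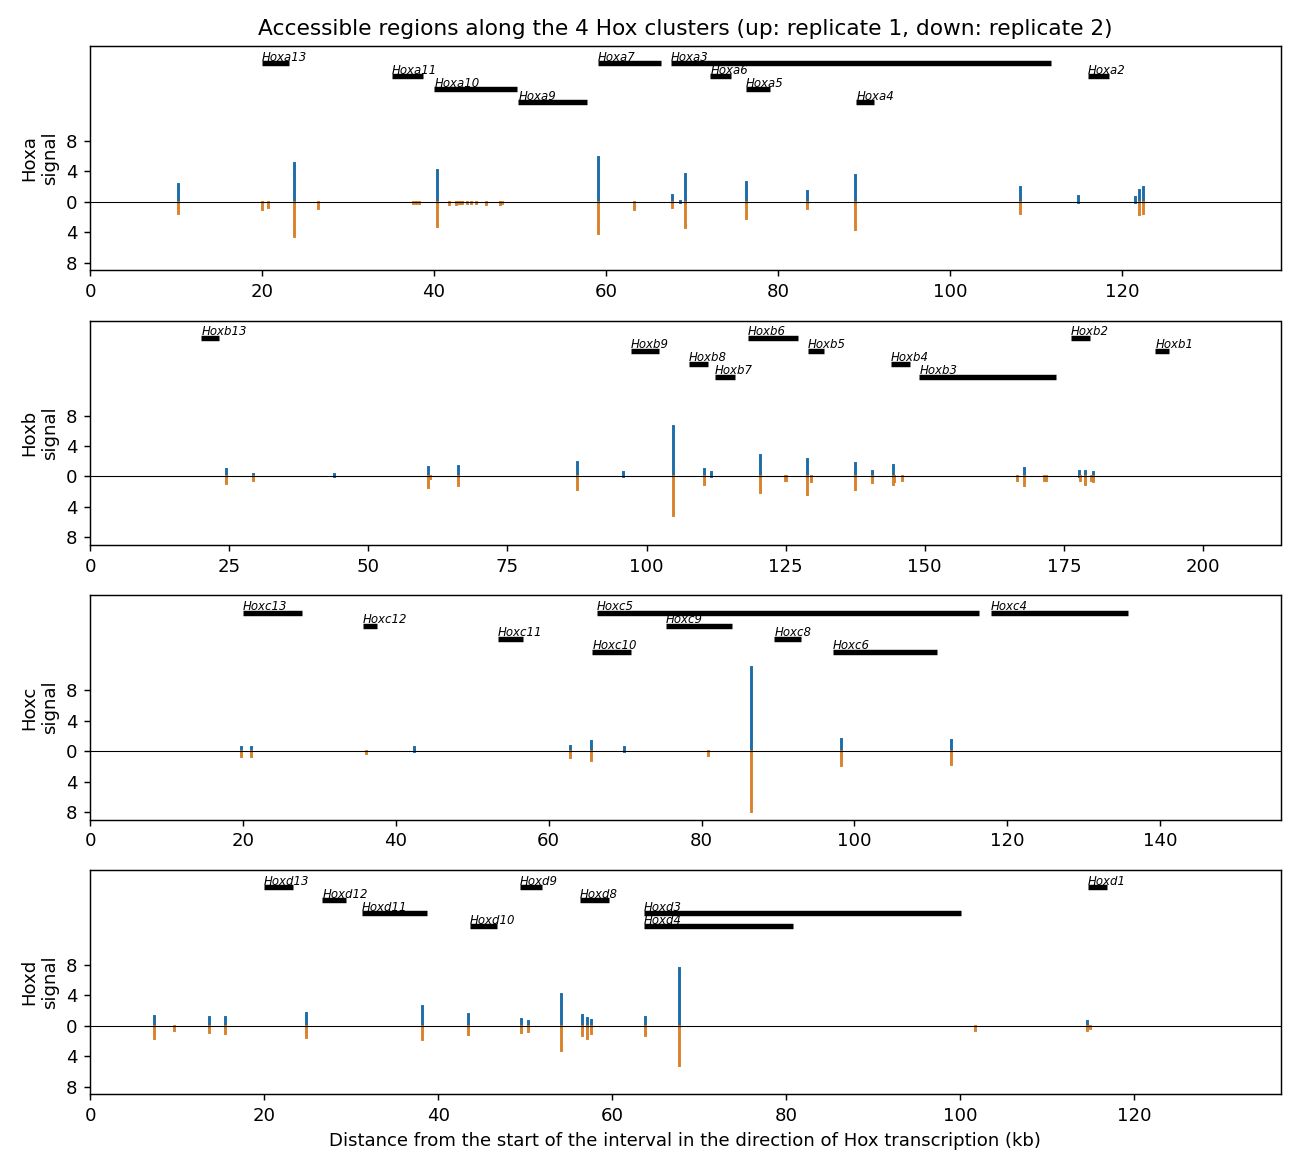
Signal of each accessible region along the Hoxa, Hoxb, Hoxc and Hoxd intervals, upwards for replicate 1 and downwards for replicate 2, against distance in kb in the direction of Hox transcription; black bars are the listed genes. The tallest line of the Hoxb, Hoxc and Hoxd panels lies away from the listed promoters, at 6.67 and 5.09, 11 and 7.88, and 7.55 and 5.14.

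Peak density set Hoxc apart from the other clusters. In replicates 1 and 2 there were 10.8 and 21.7 peaks per 100 kb in Hoxa, 9.35 and 12.2 in Hoxb, 11 and 13.9 in Hoxd and 5.78 in both replicates in Hoxc. The genome as a whole had 5.25 and 4.59, so Hoxc was close to it while the other 3 were above it in both libraries. The replicates differed most in Hoxa (mean 16.2 ± 7.66, SD, n = 2). Footprints put the clusters in a single order in both replicates, with 34.7 and 43.3 per 100 kb in Hoxa, 27.8 and 32.2 in Hoxd, 20.6 and 28.5 in Hoxb and 12.2 and 14.1 in Hoxc. The genome had 12.8 and 12.3. The order of Hoxd and Hoxb turned with flanks of 50 kb, which gave mean footprint densities of 21.3 in Hoxd and 25 in Hoxb. Of the interval footprints, between 88.3% (Hoxa, replicate 2) and 100% (Hoxd, replicate 2) lay inside peaks.

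In both replicates the strongest regions of Hoxb, Hoxc and Hoxd were not at the promoters of the listed genes, and in replicate 2 neither was that of Hoxa. Of the 49 shared regions, 21 touched a listed promoter (median signal 1.25) and 28 did not (median 1.56). The highest of all was in the Hoxc cluster at chr15:102987521-102987700, between Hoxc9 and Hoxc8 and inside an intron of the long transcript of Hoxc5. It had 11 in replicate 1 and 7.88 in replicate 2 (9.43 ± 2.18). The highest Hoxc promoter, that of Hoxc6, had 1.65 and 1.84. The region stood at the 94.8th percentile of shared regions of the genome. Its sequence is shown because it had the highest value of the 49. It is written along the + strand of mm10, and capitals mark the 74 bases that lay in footprints of both replicates.
Hoxc9 to Hoxc8: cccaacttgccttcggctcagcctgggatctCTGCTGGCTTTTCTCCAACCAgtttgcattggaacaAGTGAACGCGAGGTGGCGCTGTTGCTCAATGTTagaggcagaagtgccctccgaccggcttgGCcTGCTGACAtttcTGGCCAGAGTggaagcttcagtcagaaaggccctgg

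The Hoxd cluster had 7.55 and 5.14 at chr2:74715861-74716040, in an exon at the start of the antisense transcript Hoxd3os1 and 4022 bp from the nearest listed start. The Hoxb cluster had 6.67 and 5.09 at chr11:96278901-96279060, in the space between Hoxb9 and Hoxb8. Both were thus higher in replicate 1, as were 32 of the 49 shared regions of the intervals and 80.8% of those of the genome. The Hoxb sequence, with the 59 bases in footprints of both replicates in capitals, is given on the + strand of mm10 for comparison with the site between Hoxc9 and Hoxc8, which lies in the corresponding gap of its cluster.
Hoxb9 to Hoxb8: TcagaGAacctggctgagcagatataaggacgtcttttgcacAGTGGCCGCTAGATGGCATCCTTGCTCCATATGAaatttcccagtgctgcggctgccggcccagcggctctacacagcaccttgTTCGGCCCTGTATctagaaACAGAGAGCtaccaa

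In Hoxa the promoter peak of Hoxa7 (5.83 and 4.08) and the region chr6:52257061-52257220 between Hoxa11 and Hoxa13 (5.17 and 4.44) were close. The first was higher in replicate 1 and the other in replicate 2. The region between Hoxa11 and Hoxa13 lay in an exon of the annotated gene 9530018H14Rik, within 1 kb of a start of that gene. A region between Hoxa6 and Hoxa7 had 3.63 and 3.28 and lay 1384 bp from a start of Hoxa3, just outside its promoter window. The Hoxd cluster had a second strong site between Hoxd9 and Hoxd8 with 4.19 and 3.21, and another in an exon of Hoxd11 with 2.58 and 1.7. The third strongest such regions of Hoxa and Hoxb, and the second of Hoxb, lay between 1.8 and 2.45 on the mean, while the other Hoxc region away from promoters had 0.617 and 0.752. Hoxc thus had 1 strong site and otherwise weak ones, whereas Hoxa and Hoxd each had 2 regions with a mean above 3 away from listed promoters.

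CTCF is known to bind between Hox genes, so its consensus was looked for. The fixed core CCANNAGGG, searched on both strands with 10 bp added to each footprint, was found in 0 of 149 interval footprints of replicate 1 and 1 of 187 of replicate 2. Over the genome it was in 1.77% and 1.71% of footprints. A longer search, chosen after seeing that result, used the 12-base CTCF consensus and allowed mismatches, in the 180 bases around the middle of each shared region. With up to 1 mismatch, 9 of the 49 Hox regions (18.4%) had a match, close to the 16.9% of all shared regions of the genome. With up to 2, 26 (53.1%) did, against 37.8% in the genome. At the listed promoters 8 of 21 had a match with up to 2 mismatches and away from them 18 of 28, but with up to 1 the counts were 4 of 21 and 5 of 28, nearly the same share. Regions with a match of up to 2 mismatches had a median signal of 1.77 and those without had 0.885. In Hoxa the order was the reverse, with 2.18 and 2.58, while Hoxb, Hoxc and Hoxd had the pooled order. With up to 1 mismatch the pooled medians were 2.43 with a match and 1.26 without. At that limit Hoxa had the pooled order too, with 3.05 and 1.71, as did Hoxd with 1.52 and 1.08. Hoxb then had a match in 1 region only and Hoxc in 0. Signal with and without a match was not compared over the genome. Of the 20 strongest shared regions 16 had a match, as did 10 of the other 29. These shares depend on the number of mismatches allowed, and no binding data were used.

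The sites are shown for all regions with a mean signal above 2 whose match overlapped a footprint in both replicates and lay outside untranslated sequence, from the highest signal down. They were read from mm10 in the direction of the consensus, with the 12 matched bases in capitals. Only the match with the fewest mismatches is given for each region, and stretches with more mismatches are not shown. The match between Hoxc9 and Hoxc8 lies only partly in the footprint capitals of that region's sequence printed above. The longest run of those capitals lies elsewhere in the region and is not part of the match. The site and strand given for this region need therefore not be those of its longest footprint.
Hoxc9 to Hoxc8, 2 mismatches, chr15:102987538-102987567, - strand: ggagaaaagCCAGCAGAGATCccaggctga
Hoxd3os1 start, 2 mismatches, chr2:74715912-74715941, + strand: gagctttgtCCAGGAGGAGGCgctgtagga
Hoxb9 to Hoxb8, 1 mismatch, chr11:96278939-96278968, + strand: gcacagtggCCGCTAGATGGCatccttgct
Hoxa11 to Hoxa13, 2 mismatches, chr6:52257112-52257141, + strand: agcttgtcaACACGAGGTGGCgcccttgat
Hoxd9 to Hoxd8, 1 mismatch, chr2:74702386-74702415, + strand: cgcatttggCCACTAGAGAGCgctgttgct
Hoxb6 intron, 2 mismatches, chr11:96294689-96294718, - strand: cccgaacggACGGTAGATGGCagcaaactg
Hoxa5 promoter, 1 mismatch, chr6:52204650-52204679, - strand: gcccagtctCCAGCGGGTGGCgctcgagtc
Hoxb5 promoter, 2 mismatches, chr11:96303236-96303265, + strand: cgtcaatcgCCGGGAGGTGGCgcgctctgc
Hoxd11 exon, 2 mismatches, chr2:74686471-74686500, + strand: cttctacagCCACACGAGGGCgcgctcatg

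**Figure D3:**
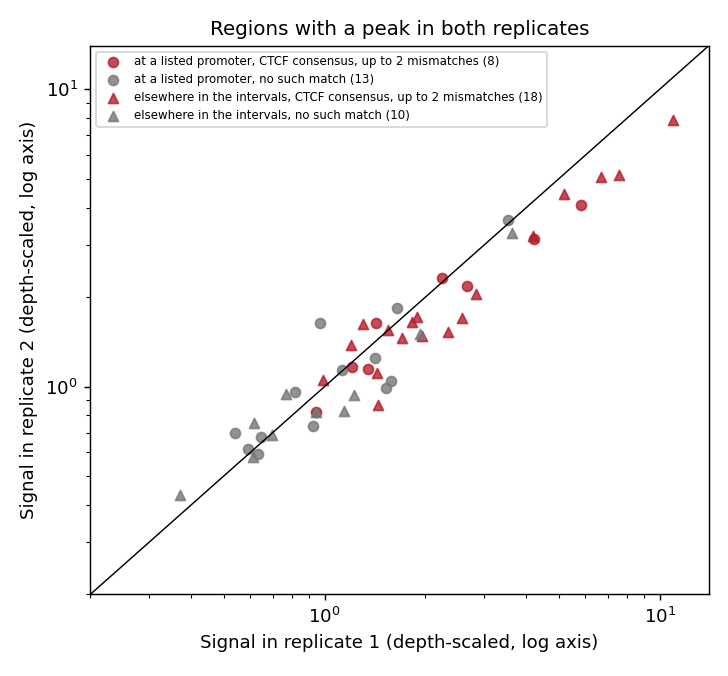
Signal in replicate 2 (vertical axis) against replicate 1 (horizontal axis), both on log axes, of the 49 regions of the Hox intervals with a peak in both; circles touch a listed promoter, triangles do not, red points have a 12-base CTCF consensus match with up to 2 mismatches and grey points have none. Most of the points at the upper right are red triangles, led by the site between Hoxc9 and Hoxc8 at 11 and 7.88, and most points lie under the line of equal signal.

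The Hoxa5 promoter joins both themes, an open promoter and a footprint over a CTCF-like site. It was 1 of 6 shared regions at listed promoters whose match overlapped a footprint in both replicates. The others were at Hoxa7 and Hoxa10, with 1 mismatch each, and at Hoxb5, Hoxc5 and Hoxc10, with 2 each. RefSeq promoters (mm10) were at hand for 22 of the 38 genes, and Hoxa5 and Hoxd1 were the open ones whose promoters held bases in footprints of both replicates, 50 and 32 of the 300. The 250 bases before the Hoxa5 start, chr6:52204588-52204837 on the - strand, are printed with these bases in capitals. The middle of the 3 stretches holds the CTCF match shown above, and the start lies just after the last base.
Hoxa5 promoter: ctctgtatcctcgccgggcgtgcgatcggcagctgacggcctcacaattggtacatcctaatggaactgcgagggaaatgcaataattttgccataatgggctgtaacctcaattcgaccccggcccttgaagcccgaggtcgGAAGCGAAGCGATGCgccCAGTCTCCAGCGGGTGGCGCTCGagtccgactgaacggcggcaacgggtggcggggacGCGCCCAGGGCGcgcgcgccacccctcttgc

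The other motifs were searched in the same footprints. The HOX-PBX motif TGATTNAT, bound by Hox proteins with their cofactors, was in 0 of 149 and 0 of 187, against 0.153% and 0.134% of all footprints. The MEIS motif TGACAG was in 0.671% and 1.6%, against 2.12% and 1.98% of all footprints. The SP motif GGGCGG, common in CpG-rich promoters, was the most frequent, in 8.72% and 6.42%, beside 7.74% and 8.39% in the genome. In the RefSeq promoters the nuclear receptor motif AGGTCA, which retinoic acid receptors can bind, was in 7 of 24 Hox promoters (29.2%) and 16.3% of all 32851. In the interval footprints it went the other way, with 0.671% and 1.07% against 1.76% and 1.64% in the genome. All motifs were searched on both strands, and with so few sequences these shares are descriptions only.

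A weak signal across Hoxa10 set the replicates apart. Over 10400 bp, from inside Hoxa10 to the 3' end of Hoxa11, replicate 2 had 14 weak peaks with signals from 0.113 to 0.31, all at or below the 12.6th percentile of its peaks. In the same span replicate 1 had only the peak near the Hoxa10 start, with 4.21, which replicate 2 shared with 3.14. Of the 14 weak peaks 9 were also in the smaller peak set. They were 14 of the 18 Hoxa regions seen in replicate 2 alone. The genome held 16 stretches of that span with as many regions seen in replicate 2 alone, this one included.

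**Figure D4:**
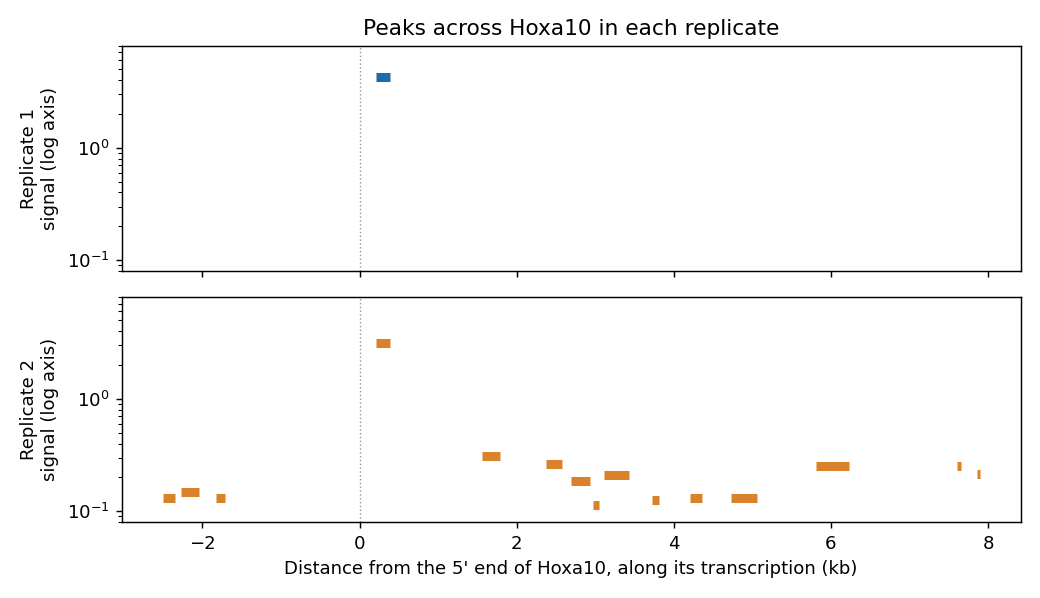
Peaks across Hoxa10 in replicate 1 (top) and replicate 2 (bottom), with signal on a log axis against distance in kb from the 5' end of Hoxa10 (dotted line); each bar spans a peak. Both replicates show the peak near the start at 4.21 and 3.14, and the 14 peaks between 0.113 and 0.31 appear in replicate 2 alone.

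Of the 17 long non-coding RNA genes between the Hox genes, 7 were open by the rule used for the Hox genes. Hoxd3os1 was the highest with 7.55 and 5.14, which is the strong Hoxd region above. Gm53, upstream of Hoxb9, had 1.89 and 1.71, Gm15050 in Hoxa had 1.93 and 1.5, and Gm11536 had the peak also counted for Hoxb3. Hoxb3os, Gm28793 and Haglr were between 0.623 and 0.88 on the mean, and Gm28793 shares its peak with Hoxd9. Hotair, the antisense RNA of the Hoxc cluster known for its links to Polycomb, lacked a promoter peak in both libraries, as did Hoxa11os. None of the 7 microRNA genes, among them Mir10a, Mir10b and Mir196b, had one within 1 kb of the annotated start, which is that of the hairpin and not of the primary transcript. The open share over all long non-coding and microRNA genes of the genome was not counted. Whether the counts given here are low or high for such genes is therefore unknown.

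The fixed lists of genes that work with or on the Hox genes are set beside the open share of 68.8% over all protein-coding genes. All 7 of the Meis and Pbx cofactor genes were open, with a median of 5.93 and Pbx3 highest (15.5 and 15.2). Of 14 Polycomb and Trithorax genes 13 were open, with a median of 11.3 and Kmt2a highest (23.2 and 20.4), while Kdm6b had no peak. Among 11 genes of the retinoid pathway, 8 (72.7%) were open, a share near that of all genes, and Rarg was highest (14 and 12.5). The others there were Cyp26a1 (0.43 in replicate 2), Cyp26c1 (none) and Crabp1 (0.241 in replicate 1). Homeobox genes of other clusters split: all 6 Iroquois genes were open with a median of 2.18, led by Irx3 (4.85 and 4.94), but only 2 of 6 ParaHox genes, Gsx1 (1.77 and 1.84) and Pdx1 (0.291 and 0.227). Cdx1, Cdx2 and Cdx4 had no peak, Gsx2 had 0.291 in replicate 1, and Evx1 and Evx2, the even-skipped homologues next to Hoxa13 and Hoxd13, had none.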

How the data were processed

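For each of 2 replicates the authors deposited 2 peak sets, cleavage false discovery rates and footprints, per the labels on mm10. Peak signal is on a scale that the authors normalized to read depth, per the submitters' processing notes, in a way that is not stated. The deposited FDR list, treated as a p-value or q-value column, holds runs of bases under 0.05. Of the deposited footprints only the positions were used, since their other column is constant. Not given in the sources used here were the callers, their versions, read totals and how reads of the CAST parent were mapped to the C57BL/6J reference. The sets were used per replicate, with the larger peak set as the main one. Peaks of the replicates that overlapped or touched were merged into regions. A region or gene takes its highest peak, means and SDs are over 2 replicates, and a peak that touches several promoters counts for each. Genes came from GENCODE M21, sequence from GRCm38.p6 and promoters from RefSeq. The overlap and motif code was tested on simulated data. Python 3.11.15, numpy 2.4.6, pandas 2.3.3, pysam 0.24.0 and matplotlib 3.10.9 were used. The members and lists were chosen with earlier results of these data known. The text names all 38 genes, the 3 strongest shared regions per interval away from them, non-coding genes between them, Evx1 and Evx2, and of each related list the highest value and the closed genes. The comparison with CpG-rich genes, the longer CTCF search and the account of Hoxa10 were added after seeing the data. Alternatives covered the window, the start used, the peak set, the flank and each replicate alone. Alleles were not analysed here, and 1 marker list is not reported here.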

Additional observations from a re-analysis of the deposited data

How the results depend on the processing

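The count of 19 open Hox genes ranged from 14 with the smaller peak set to 22 with windows of 2 kb, and from 21 to 22 with a single replicate. Central genes stayed between 8 and 11 of 15. The 5 open anterior genes became 3 with 500 bp windows, 3 with the 5' end of the gene alone, 3 with the upper 50% of peaks, 3 with peaks at a single gene's promoter and 2 with the smaller peak set, and ranged from 5 to 6 with a single replicate. The 5 posterior ones became 3 with the smaller set (5 to 7 with a single replicate). The 4 open Hoxb genes became 2 with 500 bp windows, 2 with the 5' end alone and 2 with the smaller set. Single replicates gave 6 to 6 for Hoxa, 5 to 5 for Hoxb, 4 to 5 for Hoxc, 6 to 6 for Hoxd and 10 to 10 for central genes. Peak densities per 100 kb (means of 16.2 for Hoxa, 10.8 for Hoxb, 5.78 for Hoxc and 12.4 for Hoxd) moved with the interval and the peak set. Without flanks they were 13.2 for Hoxb and 6.91 for Hoxc, and with 50 kb flanks 5.33 for Hoxc and 9.14 for Hoxd. With the smaller set they were 5.38 for Hoxb, 3.53 for Hoxc and 6.94 for Hoxd, and with the upper 50% of peaks 5.38, 2.89 and 9.87. Footprint densities were 30.2 (Hoxb), 17.3 (Hoxc) and 37.2 (Hoxd) without flanks, and 29.5 (Hoxa) and 21.3 (Hoxd) with 50 kb flanks. With 50 kb flanks Hoxb (10.8 peaks, 25 footprints) was thus above Hoxd, the reverse of the main order, while Hoxc stayed the lowest in all of these. Regions with a CTCF consensus match fell from 26 to 9 with up to 1 mismatch. The cause of these moves was not tested. Hoxb3 (0.203) and Hoxc6 (0, no peak) depended on windows wider than 500 bp, and Hoxa3 rose to 3.46 with 2 kb windows, which reach the next region. Read depth is unknown, and the weakest open genes are the least certain: interval regions seen in a single replicate had median signals of 0.546 (replicate 1) and 0.373 (replicate 2). No paired analysis was possible because there is a single group.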

Other observations

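The CTCF consensus has a direction, and the 26 matches with up to 2 mismatches were read against the direction of Hox transcription after their positions had been seen. On the anterior side of the 5' end of the group 9 gene of each cluster, 12 of 16 matches pointed the same way as the Hox genes, and all 4 in Hoxd did. The opposite Hoxc match on that side is the one between Hoxc9 and Hoxc8, which lies only partly in the footprints of its region. On the posterior side 7 of 10 pointed the opposite way, among them all 3 between Hoxb13 and Hoxb9, the site between Hoxa11 and Hoxa13 and the site between Hoxd13 and Hoxd12. All 8 matches in regions at listed promoters had the direction of the genes. Of the 26 matches 20 overlapped a footprint in both replicates, and of these 8 it was 6. A single match was kept per region, and ties went to the + strand, the Hox direction in Hoxb, Hoxc and Hoxd. Over the genome 37.8% of shared regions had a match with up to 2 mismatches, and their directions were not counted. The counts are small and were given no test.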
